A study of Rattus norvegicus with 15 samples.

Results

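The mitochondrial ribosomal protein genes form the family whose symbols begin with Mrpl (large subunit) or Mrps (small subunit) followed by a number. They were chosen by name: every row of the deposited expression table that carries a gene identifier and has such a symbol, with at most 1 letter after the number. No measured value enters that choice, except that rows with no identifier are 0 in every library. This gave 76 genes of 34357, of which 46 are named for the large and 30 for the small subunit. The family as a topic was selected on the artery FPKM values of 1 member, Mrps28, known from an earlier look at these data, so the artery difference between genotypes is given below as a description.

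Mitochondria keep a ribosome of their own, descended from a bacterial one, which makes the few proteins encoded by mitochondrial DNA. Those proteins are core subunits of the respiratory chain and the ATP synthase. The RNA of this ribosome comes from mitochondrial DNA, while its proteins are encoded in the nucleus, made in the cytosol and imported. Cells with many mitochondria, such as those of the proximal tubule of the kidney, are rich in its products. Some names do not follow the structure: in mammals the proteins of Mrps18a and Mrps30 sit in the large subunit, and that of Mrps36 is known as a part of the 2-oxoglutarate dehydrogenase complex.

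RNA was sequenced from mesenteric artery and from kidney cortex. The rats were Dahl salt-sensitive (SS), which become hypertensive on a salty diet. The deletion rats lack a noncoding interval of 30.4 kb on chromosome 2 (chr2:60825801-60856216, rn7), the rat ortholog of a human linkage block next to Npr3. The groups were deletion artery (4 libraries), wild-type artery (4), deletion kidney (4) and wild-type kidney (3), and all titles call the animals male. Age, diet, the number of founder lines and whether a library came from 1 animal are not given in the sources used here, so every p-value measures the spread between libraries. The question of the design is which genes the loss of the interval alters in each tissue. The members lie on 19 chromosomes, at most 12 on any of them. Mrps30, 10.4 Mb away, is the nearest of the 6 members on chromosome 2, and Mrps28 lies 32 Mb away.

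Values are FPKM, which are fragments scaled by gene length and by library size. They summed to between 285679 and 433477 in the artery libraries and to between 376270 and 459847 in the kidney libraries, and the number of reads behind them is unknown. The tissues carried the marker genes of their names. The 7 smooth muscle markers summed to 1330 to 2730 FPKM in the artery libraries, against 37.2 to 77.3 in the kidney libraries. The 8 proximal tubule markers summed to 81.4 to 128 FPKM in the artery libraries, against 3160 to 6030 in the kidney libraries. Most of that artery sum was Aqp1, with 78.9 to 120 FPKM, while Slc34a1 reached at most 1.06 in artery. The artery libraries also held 10 of 10 adipocyte markers, with sums of 2540 to 5130 FPKM, against 36.2 to 48.2 in kidney. The library labelled wild-type kidney 3 went against its sex label: Xist, made from an inactive X chromosome, stood at 81.1 FPKM and the Y-linked Eif2s3y at 0. It is kept in its group, and results that rest on it are given with and without it.

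The promoters of the family are shown for 6 members because they hold the motifs that recur in it, or lack them in the member with the smallest difference between tissues. RefSeq windows on GRCr8, running from 250 bases before to 50 bases after the annotated start, were at hand for 60 members (62 windows). On both strands, the ETS core CCGGAAG was present in 33.9% of these windows, against 8.75% of all 33469 windows of the same length. Among windows of protein-coding genes the share was 10.7%. ETS factors include the nuclear respiratory factor 2 complex, whose subunits are encoded by Gabpa and Gabpb1. The YY1 element, searched as AAGATGG, was present in 25.8% of the members' windows, against 7.01% of all and 7.29% of those of protein-coding genes. The NRF1 core, searched as GCATGCG, was present in 9.68%, against 3.33% and 3.99%. The members' windows were also richer in CG, with a median ratio of CG observed to that expected from C and G of 0.788. That ratio was 0.392 in all windows and 0.521 in those of protein-coding genes. The ETS and NRF1 letters contain CG, and the part of CG in these shares was not tested. At least 1 of the 3 motifs was present in 34 windows (54.8%), against 17.5% of all windows and 20% of those of protein-coding genes. No ETS core overlapped a YY1 element in the members. Of 17 YY1 elements 15 read forward and 11 began after the start, at base 31 at the farthest, while every NRF1 core began before it, by 15 to 131 bases. The TATA box letters TATAAA were found in 12.9% of the members' windows and in 14.2% of all. A match of letters is a description and not a bound site. Below, capitals mark the ETS core, the YY1 element and the NRF1 core, on either strand. Mrps18b (chr20:2842756-2843055, plus strand) holds all 3, with the NRF1 core on both strands and the ETS core reversed. Mrps18a (chr9:22367331-22367630, minus strand) holds an ETS core and a YY1 element. Mrpl58 (chr10:101145092-101145391, plus strand) holds an ETS core alone. Mrpl50 (chr5:68668038-68668337, minus strand) and Mrpl46 (chr1:142116981-142117280, minus strand) each hold a YY1 element. Mrpl51 (chr4:159677738-159678037, plus strand) holds none of the 3.
Mrps18b: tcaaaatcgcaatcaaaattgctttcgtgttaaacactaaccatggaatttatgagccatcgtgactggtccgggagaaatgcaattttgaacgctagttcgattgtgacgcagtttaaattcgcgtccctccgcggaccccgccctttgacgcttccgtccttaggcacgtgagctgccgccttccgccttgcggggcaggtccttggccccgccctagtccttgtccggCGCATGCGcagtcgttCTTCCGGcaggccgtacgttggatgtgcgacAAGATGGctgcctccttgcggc
Mrps18a: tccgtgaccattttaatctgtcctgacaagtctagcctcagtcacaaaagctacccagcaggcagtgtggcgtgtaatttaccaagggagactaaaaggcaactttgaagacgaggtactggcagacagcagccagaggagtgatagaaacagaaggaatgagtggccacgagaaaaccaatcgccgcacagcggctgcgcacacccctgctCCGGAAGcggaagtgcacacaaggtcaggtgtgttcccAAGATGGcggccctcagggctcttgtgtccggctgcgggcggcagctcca
Mrpl58: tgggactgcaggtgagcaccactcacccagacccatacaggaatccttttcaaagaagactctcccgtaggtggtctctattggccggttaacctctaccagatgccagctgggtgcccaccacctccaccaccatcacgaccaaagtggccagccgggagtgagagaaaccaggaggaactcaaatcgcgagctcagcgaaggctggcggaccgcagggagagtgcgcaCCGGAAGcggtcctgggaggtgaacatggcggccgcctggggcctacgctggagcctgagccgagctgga
Mrpl50: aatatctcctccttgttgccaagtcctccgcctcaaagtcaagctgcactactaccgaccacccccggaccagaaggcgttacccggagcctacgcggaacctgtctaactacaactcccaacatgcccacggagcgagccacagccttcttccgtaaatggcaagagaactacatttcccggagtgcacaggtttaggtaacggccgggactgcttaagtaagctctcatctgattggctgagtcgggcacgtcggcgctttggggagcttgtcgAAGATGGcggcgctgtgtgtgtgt
Mrpl46: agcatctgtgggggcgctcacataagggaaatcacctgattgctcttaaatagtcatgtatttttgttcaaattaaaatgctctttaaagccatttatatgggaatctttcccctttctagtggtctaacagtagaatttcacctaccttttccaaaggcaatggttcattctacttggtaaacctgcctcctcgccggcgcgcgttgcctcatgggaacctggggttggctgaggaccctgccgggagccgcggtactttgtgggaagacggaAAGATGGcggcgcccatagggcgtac
Mrpl51: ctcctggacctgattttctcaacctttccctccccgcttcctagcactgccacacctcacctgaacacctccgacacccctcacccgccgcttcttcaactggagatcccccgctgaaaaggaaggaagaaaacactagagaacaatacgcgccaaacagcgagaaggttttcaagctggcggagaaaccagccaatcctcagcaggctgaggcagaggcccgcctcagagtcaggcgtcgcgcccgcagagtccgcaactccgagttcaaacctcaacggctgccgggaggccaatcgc

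The members were moderately expressed in both tissues, and their order was similar. Over the 76 members, the rank correlation of mean FPKM between artery and kidney was 0.81 (Spearman, across genes that share the same libraries, given as a description). The median member stood at 8.08 to 9.18 FPKM in the deletion artery libraries and at 7.15 to 8.16 in the wild-type artery libraries. In kidney it stood at 13.5 to 17.9 FPKM in the deletion libraries and at 16.1 to 20.8 in the wild-type libraries. Every artery library thus lay below every kidney library. All members together took 0.152% to 0.251% of the summed FPKM in artery, against 0.268% to 0.41% in kidney. Mrps21l (chromosome 18, 73412080 to 73412549, plus strand) was the exception in level, with means of 0.089 FPKM ± 0.119 (SD, n = 8) in artery, against 0.113 ± 0.0897 (SD, n = 7) in kidney. It failed the filter of a mean of at least 0.5 FPKM and was not tested, and 75 members were.

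**Figure D1:**
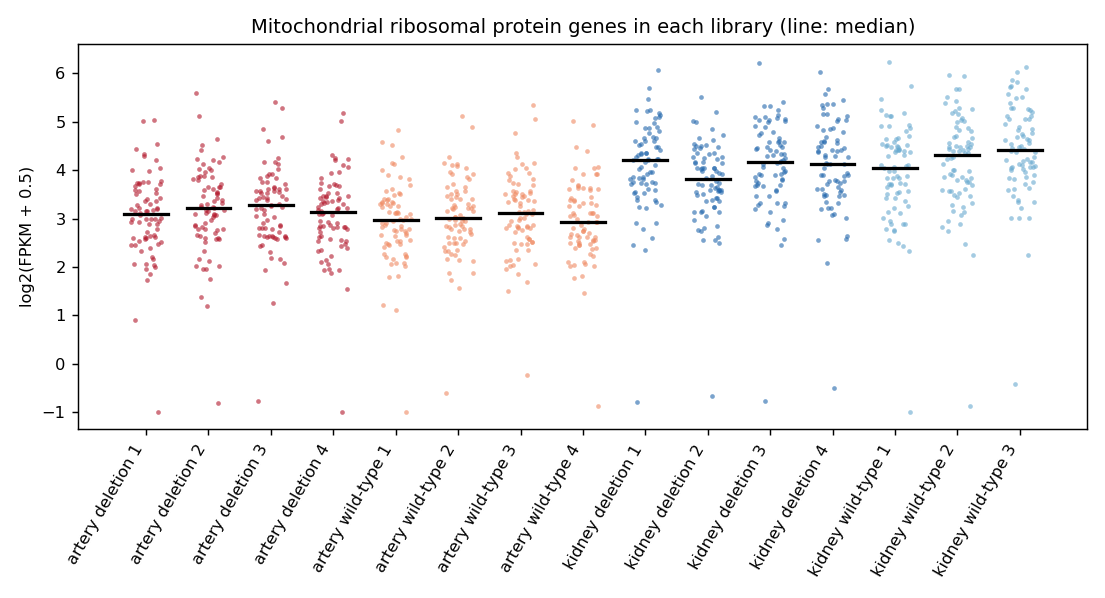
Each point is 1 of the 76 members in 1 library, as log2(FPKM + 0.5), and each black line is the median of the members in that library. The 8 artery libraries lie below the 7 kidney libraries, kidney deletion 2 is the lowest of the kidneys and kidney wild-type 3 the highest, and the isolated low point in each library is Mrps21l.

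Mrpl33 and Mrpl17 had the highest mean levels in artery, and Mrpl15 and Mrpl33 in kidney. In artery, Mrpl33, whose bacterial counterpart is L33, averaged 34.7 FPKM ± 8.07 (SD, n = 8), followed by Mrpl17 with 33.1 ± 3.29, Mrps21 with 22.9 ± 3.82, Mrps17 with 20.4 ± 2.71 and Mrpl15 with 18.8 ± 2.77. The order of neighbours such as Mrpl33 and Mrpl17, or Mrps17 and Mrpl15, lies within the spread between libraries. In kidney, Mrpl15 averaged 63.1 FPKM ± 10.9 (SD, n = 7), followed by Mrpl33 with 51.0 ± 12.4, Mrpl17 with 44.8 ± 7.02, Mrps34 with 41.0 ± 12.6 and Mrps16 with 40.3 ± 6.10. Mrpl15, Mrpl33 and Mrpl17 were among the 5 highest in both tissues, whereas Mrps34 was rank 54 in artery and rank 4 in kidney. After Mrps21l, the lowest in artery were Mrps12 with 2.02 FPKM ± 0.404 (SD, n = 8), Mrpl38 with 3.32 ± 0.732, Mrpl22 with 3.35 ± 0.362 and Mrpl42 with 3.38 ± 0.695. Those in kidney were Mrpl42 with 5.23 FPKM ± 1.24 (SD, n = 7), Mrpl46 with 5.89 ± 1.79, Mrps15 with 5.92 ± 1.77 and Mrps5 with 6.25 ± 0.807. Mrps21l and Mrpl42 were among the 5 lowest in both tissues.

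Set against kidney, artery had less RNA of every tested mitochondrial ribosomal protein gene. All 75 were called lower in artery and 0 higher by limma at an adjusted p under 0.05 (Benjamini-Hochberg over 16856 genes), against 35.3% of all genes called lower and 41.8% called higher. At an unadjusted p under 0.05 the count of members higher in artery was 0 too, against 42.7% of all genes. The median log2 fold change of the members, artery over kidney, was -0.97 (a ratio of 0.511), while the median of all genes was 0.11. Read the other way, the kidney level was 1.96 times the artery level at the median member. For 35 members the log2 fold change was below -1, against 17.4% of all genes. In 61 members every artery library lay below every kidney library, against 24.4% of all genes. The members named for the large subunit had a median of -0.93 (46 genes) and those named for the small subunit one of -1.01 (29 genes). The filter did not choose this result, since all 75 members exceed 0.5 FPKM on average in each tissue alone and the lowest artery mean was 2.02 FPKM. Because these are pieces of tissue, fewer cells rich in mitochondria and less RNA per cell cannot be told apart. The tubule and adipocyte markers above differ between the tissues, and their part in the result was not tested.

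The call of nearly all members held within each genotype. Among deletion libraries alone, 68 of 75 were called lower in artery (31% of all genes), and among wild-type libraries alone 71 (30%). Without wild-type kidney 3, 74 members were called lower (34.8% of all genes), the exception being Mrpl23. Scaling by median of ratios moved the median of all genes to -0.03 and that of the members to -1.12, with 75 called lower (40.3% of all genes). Quantile normalization left 69 called lower (36.1% of all genes), without Mrpl17, Mrpl23, Mrpl33, Mrpl51, Mrps17 and Mrps21.

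**Figure D2:**
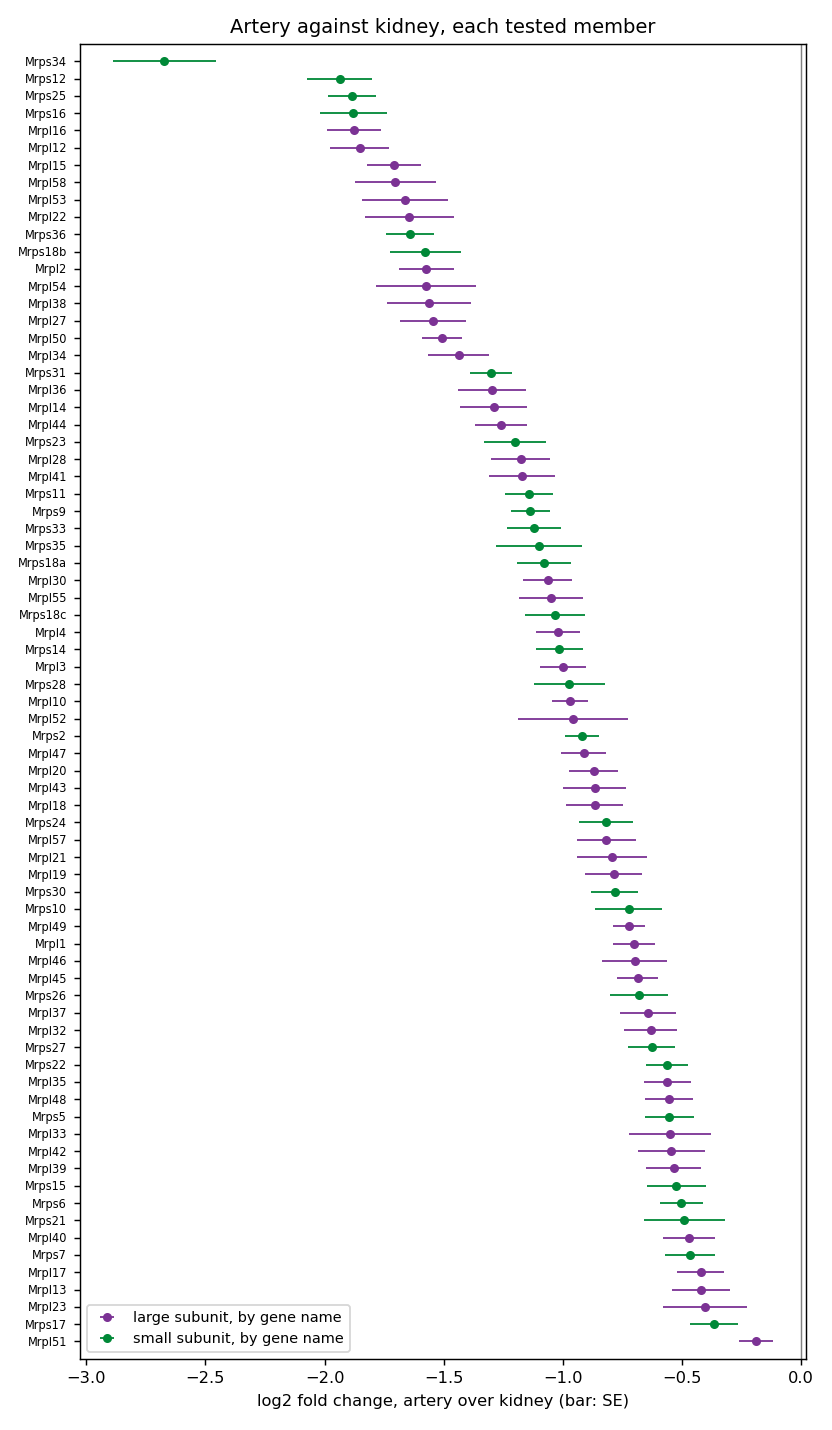
Log2 fold change of each of the 75 tested members, artery over kidney, from limma on log2(FPKM + 0.5), with its standard error as a bar and the subunit by name as colour. Every point lies left of 0, between -2.67 for Mrps34 and -0.19 for Mrpl51.

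Mrps34 and Mrps12 had the largest falls, and 4 of the 8 largest were in genes named for the small subunit. Mrps34 encodes a small-subunit protein special to mitochondria, whose loss causes an encephalopathy in humans. It stood at 5.25, 11.1, 5.66 and 5.42 FPKM in the deletion artery libraries and at 3.64, 6.55, 7.32 and 3.80 in the wild-type artery libraries. In kidney it stood at 37.3, 24.1, 39.8 and 40.9 FPKM in the deletion libraries and at 34.3, 45.3 and 65.1 in the wild-type libraries. The lowest kidney value lay above the highest artery value, and the log2 fold change was -2.67 (SE 0.22, limma adjusted p = 6.89e-09). Mrps12 encodes the counterpart of bacterial S12, a protein of the decoding centre. It was among the weakest members in artery, with 1.36, 1.79, 1.89 and 2.43 FPKM in deletion libraries and 1.66, 2.44, 2.35 and 2.24 in wild-type libraries. In kidney it had 10, 6.71, 8.29 and 8.69 FPKM in deletion libraries and 6.91, 10.4 and 13 in wild-type libraries. Its log2 fold change was -1.94 (SE 0.14, limma adjusted p = 1.03e-09), and the tissues did not overlap. Mrps25, a small-subunit gene, ran from 5.35 through a median of 6.58 to 7.87 FPKM in artery, against 20.8, 27.2 and 29.0 in kidney, a log2 fold change of -1.88 (SE 0.10). Mrps16, the counterpart of bacterial S16, ran from 7.42 through 10.2 to 15.7 FPKM in artery, against 31.6, 38.2 and 50.5 in kidney, again -1.88 (SE 0.14).

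Of the large subunit, Mrpl16, Mrpl12, Mrpl15 and Mrpl58 fell furthest in artery. Mrpl16, the counterpart of bacterial L16, ran from 7.70 through a median of 9.67 to 11.2 FPKM in artery, against 24.8, 36.0 and 45.3 in kidney (log2 fold change -1.88, SE 0.11). The whole of Mrpl16 lies within Stx3 on the opposite strand in the table, and since the use of strand in counting is not stated, reads of both genes cannot be told apart. Mrpl12 encodes the stalk protein, which also binds the mitochondrial RNA polymerase. Its artery libraries held 12.2, 12.0, 10.3 and 9.47 FPKM with the deletion and 8, 8.77, 10.9 and 7.47 in wild type. Its kidney libraries held 36.7, 28.2, 32.3 and 38.3 FPKM with the deletion and 34.2, 42.9 and 46.9 in wild type (log2 fold change -1.85, SE 0.12, limma adjusted p = 5.10e-10). Mrpl10, which anchors that stalk, ran from 9.14 through 10.1 to 10.5 FPKM in artery, against 15.7, 20.5 and 22.6 in kidney, with a log2 fold change of -0.97 (SE 0.08). Mrpl10 too is overlapped by a gene on the other strand, Lrrc46. Mrpl15 ran from 15.6 through 18.6 to 23.9 FPKM in artery, against 45.4, 64.7 and 75.5 in kidney (-1.71, SE 0.11). Mrpl58, a peptidyl-tRNA hydrolase built into the ribosome that frees stalled chains, ran from 3 through 3.81 to 5.09 FPKM in artery, against 8.88, 13 and 26.2 in kidney (-1.70, SE 0.17). Each of these 5 genes was called lower in artery with no overlap between tissues.

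The members with other known roles lay on both sides of the family median. Of the 3 genes related to bacterial S18, the log2 fold change was -1.58 (SE 0.15) for Mrps18b, -1.08 (SE 0.11) for Mrps18a and -1.03 (SE 0.13) for Mrps18c. Mrps18a, whose protein is in the large subunit, averaged 15.1 FPKM ± 2.06 (SD, n = 8) in artery, against 32.6 ± 4.87 (SD, n = 7) in kidney. Mrps30, the other large-subunit protein with a small-subunit name, averaged 12.5 FPKM ± 1.41 in artery, against 21.9 ± 3 in kidney, a log2 fold change of -0.78 (SE 0.10). Mrps36, of the 2-oxoglutarate dehydrogenase complex, averaged 8.83 FPKM ± 0.975 in artery, against 28.7 ± 4.31 in kidney, a log2 fold change of -1.64 (SE 0.10), which is beyond the family median. Mrpl3, near the peptidyl transferase centre, had -1.0 (SE 0.10), Mrpl44, which resembles an RNase III, had -1.26 (SE 0.11), and Mrpl45, by the exit tunnel at the inner membrane, had -0.69 (SE 0.09). Mrps28 itself had -0.97 (SE 0.15) and Mrps22, a mitochondria-specific protein of the small subunit, -0.56 (SE 0.09).

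Several members that were high in artery had small differences between tissues. Mrpl51 was picked out after its values were seen, as the smallest of all: it ran from 14.4 through a median of 16.8 to 18.4 FPKM in artery, against 16.0, 19.6 and 20.6 in kidney. The tissues overlap, the log2 fold change was -0.19 (SE 0.07, limma adjusted p = 0.0264), and the gene shares 559 bases with Ncapd2 on the opposite strand. Mrps17 had -0.37 (SE 0.10), Mrpl17 -0.42 (SE 0.10), Mrps21 -0.49 (SE 0.17) and Mrpl33 -0.55 (SE 0.17). These last 4 members also overlap between tissues, as do 14 of the 75 in all. The 4 lost their call under quantile normalization and among the deletion libraries alone, and Mrps21 also among the wild-type libraries alone. Mrpl23, with -0.40 (SE 0.18, limma adjusted p = 0.0466), held 21.9 FPKM in wild-type kidney 3, against 8.26 to 14.0 in the other kidneys, and is the member that was not called without that library.

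Members with and without the promoter motifs were all called lower in artery. Members with an ETS core in the window had a median log2 fold change of -1.0 (21 genes) and those without one -0.92 (39 genes), a description with no test. Members with a YY1 element had a median of -0.71 (16 genes) and those without -1.03 (44 genes). Mrps18b, printed above with all 3 motifs, had -1.58, while Mrpl17, also with an NRF1 core, had -0.42. Mrpl50 and Mrpl46, both with a YY1 element, had -1.51 and -0.70.

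**Figure D3:**
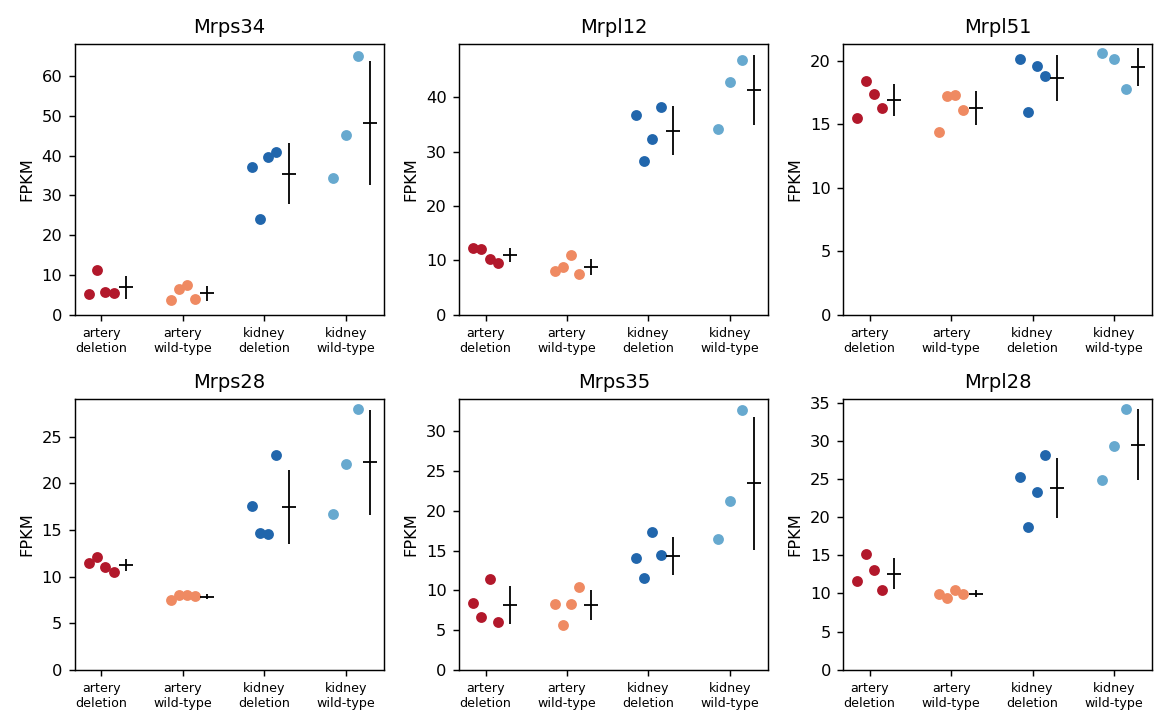
FPKM of 6 members in every library (points), with the mean and the SD of each group beside them as a cross and a bar. Mrps34, Mrpl12 and Mrpl51 are shown for the difference between tissues, where Mrps34 stays at or under 11.1 FPKM in artery and at or above 24.1 in kidney and Mrpl51 overlaps. Mrps28, Mrps35 and Mrpl28 are shown for the difference between genotypes.

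The rest of the mitochondrial gene expression machinery was for the most part lower in artery as well. Of the mitoribosomal proteins without an Mrp name, 5 of 5 were called lower, with a median log2 fold change of -0.69, among them Ptcd3 (-1.01, SE 0.09) and Dap3 (-0.36, SE 0.08). Of the translation factors, 15 of 18 were called lower and 2 higher, with a median of -0.59. Tufm, the elongation factor that brings aminoacyl-tRNA, averaged 13.8 FPKM ± 1.59 (SD, n = 8) in artery, against 57.2 ± 10.3 (SD, n = 7) in kidney. Taco1, a translational activator of cytochrome oxidase subunit I, averaged 2.94 ± 0.401 in artery, against 15.1 ± 1.5 in kidney. The 2 higher in artery were Mrrf, the ribosome recycling factor (0.42, SE 0.09), and Metap1d (0.65, SE 0.17). Of the assembly factors, 21 of 27 were called lower and 1 higher, with a median of -0.68. All 20 mitochondrial aminoacyl-tRNA synthetase genes tested were called lower, with a median of -0.74. Of the genes for mitochondrial transcription, 4 of 6 were called lower, including the polymerase Polrmt (-1.27, SE 0.10) and the factor Tfam (-1.02, SE 0.11).

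The members' median lay between those of the respiratory chain genes and of the cytosolic ribosomal protein genes. All 40 oxidative phosphorylation genes were called lower in artery, with a median log2 fold change of -1.64. The members' mean log2 level minus that of the oxidative phosphorylation genes was -2.27 to -1.96 in the artery libraries, against -3.0 to -2.70 in the kidney libraries. Of 16 genes for protein import and other measures of mitochondrial mass, 15 were called lower, with a median of -1.16. The exception was Cs, citrate synthase, higher in artery at 0.43 (SE 0.09). Of 87 cytosolic ribosomal protein genes, 9 were called lower and 29 higher, with a median of 0.18, and under median-of-ratios scaling 13 lower and 18 higher, with a median of 0.03. Of the 13 messenger genes of mitochondrial DNA, 5 were called lower, with a median of -0.22. The ribosome's own RNA genes, mt-Rnr1 and mt-Rnr2, passed in neither direction, and mt-Rnr1 ran from 3.53 to 558 FPKM within artery alone.

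**Figure D4:**
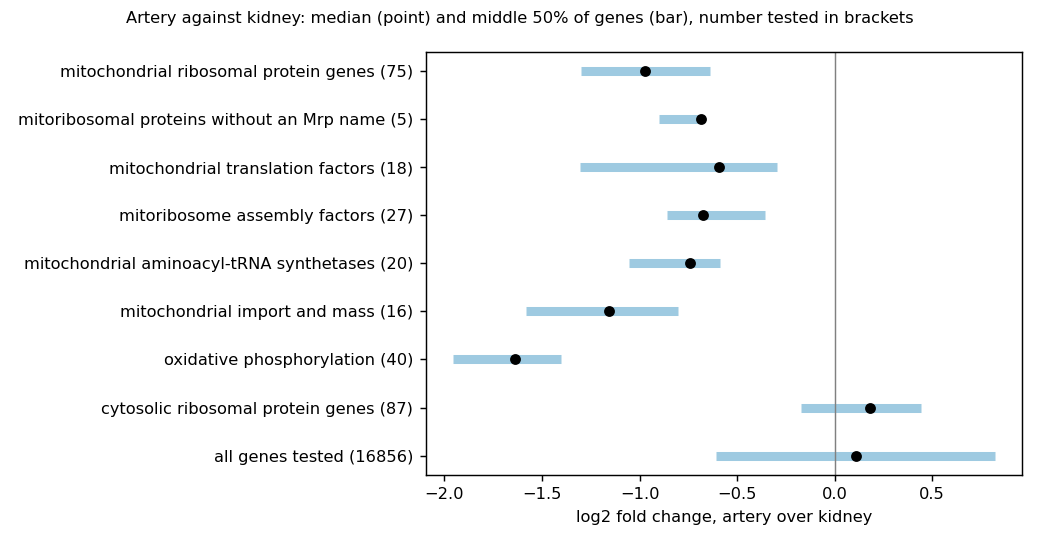
Median log2 fold change (point) and middle 50% of genes (bar), artery over kidney, for the members, 7 other lists and all genes tested, with the number of genes in brackets. The members, at -0.97, lie between the oxidative phosphorylation genes at -1.64 and the cytosolic ribosomal protein genes at 0.18.

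Genes for regulators of mitochondrial biogenesis did not share 1 direction. Ppargc1a, the coactivator that drives mitochondrial biogenesis, averaged 1.38 FPKM ± 0.3 (SD, n = 8) in artery, against 25.3 ± 2.86 (SD, n = 7) in kidney, a log2 fold change of -3.79 (SE 0.11, limma adjusted p = 9.12e-15). Esrra, a nuclear receptor that works with it, averaged 7.03 FPKM ± 1.04 in artery, against 31.5 ± 3.73 in kidney (-2.09, SE 0.10). Of the factors whose motifs are named above, Nrf1 had 0.67 (SE 0.10), Gabpa 0.33 (SE 0.09), Gabpb1 0.25 (SE 0.07) and Yy1 -0.17 (SE 0.06), all called as fitted. In all, 4 of 9 regulators were called lower and 5 higher. Under median-of-ratios scaling Gabpa (0.18) and Gabpb1 (0.11) were no longer called, while Nrf1 (0.53) and Yy1 (-0.32) were.

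Many members share a promoter region with a gene read in the opposite direction. The start of a gene on the other strand lay upstream of the member's own start, by at most 1000 bases, for 21 of 76 members (27.6%, rn7), against 9.98% of all genes. Among tested genes the shares were 26.7% of members and 13.6% of all. Of the 19 such partners that were tested and are not members, 10 were called lower in artery and 2 higher, against 35.3% and 41.8% of all genes. Their median was -0.28 on the log2 scale, against 0.11 over all genes. The partners' median thus lay below that of all genes, but closer to it than to that of the members they face, which was -0.99. Mrps12 and Sars2, a mitochondrial seryl-tRNA synthetase gene, start 76 bases apart and had -1.94 and -0.75. Mrps34 and Eme2, 33 bases apart, had -2.67 and -0.27, and Eme2 was not called (limma adjusted p = 0.0799). Mrpl50 and Zfp189, 5 bases apart, went opposite ways with -1.51 and 0.63. Mrpl13 and Mtbp, 68 bases apart, did the same with -0.42 and 0.64. These pairs were picked after their values were seen. Mrpl46 and Mrps11 are both members and face each other, but they overlap by 39 bases at their starts in rn7 and so are not among the 21. On GRCr8 their starts are 234 bases apart and their windows share 267 bases. Their log2 fold changes were -0.70 and -1.14.

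In artery, no member was called changed by the deletion. The count was 0 of 75 in each direction by limma at an adjusted p under 0.05, and 0% of 16470 genes were called. At an unadjusted p under 0.05, 9 members were higher and 1 lower in deletion artery, against 3.72% and 1.52% of all genes. Those 10 became 3 without wild-type artery 1, 4 without deletion artery 2, 4 without deletion artery 3 and 4 under median-of-ratios scaling. The shares of all genes at that p are not at hand for these refits. The log2 fold change was above 0 in 61 members, against 59.7% of all genes, and the median was 0.14, against 0.04 over all genes. The family was proposed with a value of this comparison known, so nothing is supported by these counts. With the adipocyte list as a covariate 58 members lay above 0 and the median was 0.11, and under median-of-ratios scaling 53 and 0.09. Haemoglobin made up 33.0% of the FPKM of wild-type artery 4, and leaving that library out gave 59 members above 0 and a median of 0.12. The 4 intestinal epithelium markers summed to 0.243 to 25.1 FPKM in wild-type arteries, against 0.116 to 2.39 in deletion arteries. Of these, Fabp2 stood at 14.7 FPKM in wild-type artery 1. The B cell gene Ms4a1 stood at 24.7 FPKM in deletion artery 2 and at 27 in wild-type artery 3. The part of these cells was not tested.

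Mrps28, the member whose artery values led to the choice of the family, held 11.4, 12.1, 11 and 10.5 FPKM in the deletion artery libraries, against 7.45, 7.97, 8.06 and 7.87 in the wild-type artery libraries, and the groups did not overlap. The limma fit gave 0.49 on the log2 scale (SE 0.08). In kidney it held 17.6, 14.7, 14.6 and 23.0 FPKM with the deletion and 16.7, 22.1 and 28.0 in wild type, overlapping, with a log2 fold change of -0.33 (SE 0.21). The gene lies on chromosome 2 (92820676 to 92951302, plus strand), overlaps LOC120101256 by 119 bases on the same strand, and encodes a protein of the small subunit. Mrpl14, a large-subunit gene, was the other of 2 members whose artery groups did not overlap, both higher in deletion artery. These 2 are 2.67% of the members tested, near the 2.3% of all genes. Mrpl14 shares 1329 bases with Tmem63b on the opposite strand. It held 8.22, 7.73, 8.79 and 7.86 FPKM in deletion artery, against 4.12, 7.40, 5.62 and 7.09 in wild-type artery (log2 fold change 0.43, SE 0.17), or 0.27 without wild-type artery 1.

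The remaining members with the smallest artery p did not pass the adjusted test and lay on both sides of 0. Mrpl53 held 6.4, 8.20, 9.32 and 7.16 FPKM in deletion artery, against 3.73, 5.12, 6.75 and 6.15 in wild-type artery (log2 fold change 0.49, SE 0.18). All of it lies inside Ccdc142 on the same strand, so its reads are uncertain. Mrpl15 held 19.6, 20.9, 23.9 and 18.4 FPKM in deletion artery, against 15.6, 16.4, 18.9 and 16.3 in wild-type artery (0.29, SE 0.11). Mrpl28, another large-subunit gene, had 0.31 (SE 0.12). Mrpl46 had the lower values in deletion artery, with 3.09, 2.10, 2.67 and 3.66 FPKM in deletion artery, against 3.54, 4.53, 4.6 and 3.77 in wild-type artery (-0.46, SE 0.17). In Mrpl53, Mrpl15, Mrpl28 and Mrpl46 the groups overlap.

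In kidney, no member was called changed by the deletion either. The count was 0 of 75 in each direction by limma at an adjusted p under 0.05, and 0% of 15444 genes were called. At an unadjusted p under 0.05, 2 members were lower and 0 higher, against 0.466% and 0.939% of all genes. The log2 fold change was below 0 in 65 members, against 39.8% of all genes, and the median was -0.16, against 0.04 over all genes. Under median-of-ratios scaling 71 members lay below 0 and the median was -0.24, against -0.03 over all genes. The tilt as fitted was largely lost when either of 2 libraries was left out. Without wild-type kidney 3, the library at odds with its sex label, 53 members were below 0, against 49.5% of all genes, with a median of -0.06. Without deletion kidney 2, 47 were below 0, against 47.1%, again with a median of -0.06. Wild-type kidney 3 held the highest kidney value of 46 of the 75 members, and deletion kidney 2 the lowest of 50. In deletion kidney 2 the proximal tubule markers summed to 3160 FPKM, against 4730 to 5830 in the other deletion kidneys, and their part was not tested. Leaving out wild-type kidney 1 raised the number of members at an unadjusted p under 0.05 to 18. The share of all genes at that p in that fit is not at hand, so the 18 cannot be set against it. The median without that library was -0.23 over the members, against 0.09 over all genes.

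Of the 6 members with the smallest kidney p, 5 lay lower and 1 higher with the deletion. Mrps35, a mitochondria-specific small-subunit gene, held 14.1, 11.5, 17.3 and 14.5 FPKM in the deletion libraries, against 16.5, 21.2 and 32.7 in the wild-type libraries. The groups overlap slightly, and limma gave -0.65 on the log2 scale (SE 0.22) with an adjusted p = 0.999 and an unadjusted p = 0.0151, or -0.39 without wild-type kidney 3. Mrpl33 held 51.7, 32.1, 39.4 and 50.8 FPKM with the deletion, against 53.1, 60.8 and 69.3 in wild type, without overlap (-0.50, SE 0.19, and -0.41 without wild-type kidney 3). Mrps18c had -0.39 (SE 0.19), Mrpl18 -0.32 (SE 0.17) and Mrpl28 -0.31 (SE 0.16), while without wild-type kidney 3 the values were -0.19 for Mrps18c, -0.14 for Mrpl18 and -0.19 for Mrpl28. Without wild-type kidney 1, Mrps18c had -0.60. Mrps22 lay the other way, with 8.92, 10.3, 10.6 and 9.49 FPKM in the deletion libraries, against 9.14, 8.39 and 7.62 in the wild-type libraries (0.22, SE 0.12, and 0.16 without wild-type kidney 3). The groups did not overlap in 3 members, Mrps18a, Mrpl30 and Mrpl33, all lower with the deletion, against 1.01% of all genes. With limma's array weights, which give less weight to libraries that scatter, Mrps35 (-0.53) and Mrps31 (-0.42) were called lower at an adjusted p of 0.045, when 1.83% of all genes were called. Mrps31 was named for that call. Under these weights 55 members lay below 0 with a median of -0.12, against a median of 0.04 over all genes. A limma unadjusted p under 0.05 was found for 26 members. The shares of all genes below 0 and at that p are not at hand for this fit, so neither count can be set against them.

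**Figure D5:**
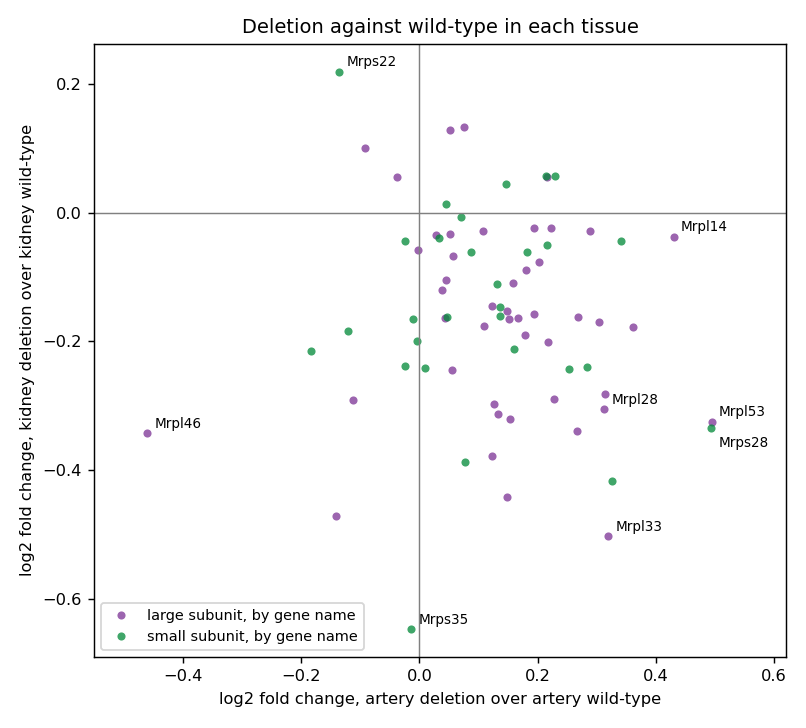
Each point is 1 of the 75 tested members, with its log2 fold change of deletion over wild type in artery on the horizontal axis and in kidney on the vertical axis, coloured by subunit name. Most lie to the right of 0 and below 0, and no member passed the adjusted test in either tissue.

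The test of the difference between the deletion effects also called no member. The effect in artery minus that in kidney was called in 0 of 75 members in each direction, with 0% of 16856 genes called by limma at an adjusted p under 0.05. At an unadjusted p under 0.05, 11 members were higher and 1 lower, against 2.56% and 1.83% of all genes. The difference was above 0 in 69 members, against 49.6% of all genes, with a median of 0.27, against a value near 0 over all genes. This difference contains the artery values of Mrps28 that the choice of the family used, so it too is a description. Leaving out 1 kidney library moved it either way. The median was 0.17, with 61 members above 0, without wild-type kidney 3, and 0.18, with 63 above 0, without deletion kidney 2. Without wild-type kidney 1 it was 0.37, with 71 above 0. The members at an unadjusted p under 0.05, 12 in all with every library, were 8, 7 and 26 without these 3 libraries in that order. Over all genes the median difference was 0.03, 0.03 and -0.05 in the same order. The shares of all genes above 0 and at that p are not at hand for these fits. Mrps28 had a difference of 0.83 (SE 0.22). Mrpl28 followed with 0.62 (SE 0.20) and Mrpl33 with 0.82 (SE 0.29). Other lists lay on both sides of 0, with no gene of any of them called. The median difference was 0.44 over 40 oxidative phosphorylation genes and 0.27 over 87 cytosolic ribosomal protein genes. It was -0.10 over 9 biogenesis regulators and -0.52 over the 13 messenger genes of mitochondrial DNA, of which 10 lay below 0, and both of that DNA's ribosomal RNA genes lay below 0 too. Fits of these lists without single libraries are not at hand. Oxidative phosphorylation genes had their highest mean log2 kidney value in wild-type kidney 3 (7.33) and their lowest in deletion kidney 2 (6.46). Cytosolic ribosomal protein genes were also highest in wild-type kidney 3 among the kidneys. Within groups, mt-Rnr1 peaked at 558 FPKM in wild-type artery 3 and at 324 in deletion kidney 4. For mt-Rnr2 the deletion kidney peak was 1849 FPKM, in deletion kidney 2.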

How the data were processed

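The authors deposited 1 table for the series with an FPKM value per gene and library, 15 libraries in all. The build rn7 and the tools HISAT2 2.2.1, Trim Galore 0.6.2 and DESeq2 1.46.0 appear, per the submitters' processing notes, with no role stated. The tool that made the FPKM values and its use of strand are not given in the sources used here. A deposited column of coverage signal for no stated sample (1 column) was not used here. Of 40694 rows, 6337 carry no identifier and are 0 in every library, and 34357 were kept. Whole reads could not be recovered from the low values (at most 9 of 4032 low genes shared a step between libraries), so depth is unknown and no counting interval is given.

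Values were analysed as log2(FPKM + 0.5), with no further scaling, so fold changes of low genes are understated. The test took every gene whose mean reached 0.5 FPKM over the libraries of the fit and was run with limma 3.58.1 in R 4.3.3 (trend and robust moderation), two-sided, with Benjamini-Hochberg adjustment over all genes tested and a threshold of 0.05. The fits were deletion against wild-type in each tissue, artery against kidney with genotype as a term, and the interaction. Alternatives were the pseudocount, the filter, median-of-ratios and quantile scaling, moderation, array weights, a replicate block, an adipocyte covariate and leaving out each library. The members and the other lists were chosen with earlier results of these data known. The members named are the 5 highest and 5 lowest in each tissue, the 6 with the smallest p in each genotype comparison, the 8 with the largest fall between tissues, the 3 with the smallest p for the interaction, and members with known roles. Promoter windows are from RefSeq (GRCr8) and were matched by symbol. Plots were made in Python 3.11.15 (matplotlib 3.10.9).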

Additional observations from a re-analysis of the deposited data

Results flagged for a closer look

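Single libraries were compared with the rest of their group, for groups of 4 libraries, by Dixon's ratio of the gap to the range (critical value 0.829). Chance flags about 1 in 20 groups, and 6 of 108 were flagged. Kidney deletion 2 stood apart for the family as a whole: the mean log2 value of the members was 3.77 there, against 4.09 to 4.11 in the other deletion kidneys. In the same library Mrps18a stood at 22 FPKM, against 32.2 to 33.8, Mrpl3 at 17.3, against 23.7 to 24.1, and Mrpl38 at 8.37, against 10.5 to 11 in the other deletion kidneys. That library had 22.0% of its summed FPKM in Rn7sl1, a small cytoplasmic RNA, against 8.23% to 12.0% in the other deletion kidneys. In artery, Mrps34 stood at 11.1 FPKM in deletion 2, against 5.25 to 5.66 in the other deletion arteries. Mrpl58 stood at 3 FPKM in wild-type 4, against 3.74 to 3.9 in the other wild-type arteries.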

How the results depend on the processing

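Under the alternatives run, no median over the members changed sign, and between tissues no tested member did. For the genotype comparisons and the interaction, only the members with the smallest p in each were followed, and none of them changed sign. The median of all genes between tissues was 0.11 as fitted and -0.03 under median-of-ratios scaling. The count of members called lower in artery ran from 68 among the deletion libraries alone to 75, and from 73 to 75 when 1 library was left out. Their median log2 fold change moved from -0.97 to -1.12 under median-of-ratios scaling and to -1.13 among the wild-type libraries alone, and ran from -1.02 to -0.92 when 1 library was left out. In kidney, limma's array weights called 2 members (Mrps35 and Mrps31), where all other alternatives called 0; the cause was not tested. With 1 library left out, the kidney median ran from -0.23 without wild-type 1 to -0.06 without deletion 2, and the artery median between genotypes from 0.10 to 0.17. With the replicate block, 0 members were called in artery (median 0.14), 0 in kidney (median -0.19), 75 lower between tissues (median -0.97) and 0 for the interaction. Whether replicate numbers mark pairs, or whether 1 rat gave both tissues, is not stated. With group means removed, same-numbered deletion and wild-type libraries correlated at 0.32, -0.34, 0.24 and 0.30 in artery. In kidney they correlated at 0.08, -0.01 and 0.27. Same-numbered artery and kidney libraries correlated at -0.04, -0.08, 0.23 and -0.03 with the deletion and at 0.14, -0.07 and 0.02 in wild type. Libraries with unlike numbers were not compared, so these values cannot decide whether the libraries are paired. Depth is unknown, and with 3 or 4 libraries in a group the number of libraries limits what the genotype comparisons can show.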
